A study of Mus musculus with 2 samples.

Results

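Cytosolic ribosomal protein genes encode the proteins that join ribosomal RNA into the small (40S) and large (60S) subunits of the cytoplasmic ribosome. They were taken as the protein-coding genes of the mouse annotation GENCODE M21 whose symbols are Rpl or Rps followed by a digit, together with Rplp0, Rplp1, Rplp2 and Rpsa, leaving out pseudogene symbols and the Rps6k kinases. This gave 86 of 21938 protein-coding genes. By symbol, 43 encode large-subunit proteins, 31 small-subunit proteins including Rpsa and 3 the stalk proteins. The remaining 9 are paralogs or symbol matches that are not core subunits (Rpl3l, Rpl7l1, Rpl10l, Rpl22l1, Rpl36al, Rpl39l, Rps19bp1, Rps27l and Rps27rt). Their promoters were examined in DNase-seq of kidney tissue from male B6CASTF1/J mice, the F1 hybrid of C57BL/6J and CAST/EiJ, aged 25 days. All data form 1 group of 2 libraries, replicate 1 and replicate 2, with no treatment in the labels, and no condition was compared. Both libraries carry 1 donor code, but each has a biosample and an animal number of its own in the labels.

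DNase I cuts DNA that is free of nucleosomes, so a peak of cuts marks accessible chromatin, and a short stretch inside it that is cut less than its flanks, a footprint, is read as DNA covered by a bound protein. A growing cell needs most ribosomal proteins in equal numbers, and the genes of ribosomal proteins are expressed in every tissue from compact promoters that usually lack a TATA box. Their transcripts typically begin with a C and a run of pyrimidines (the terminal oligopyrimidine, or TOP, start) through which mTOR controls translation. Mammalian genomes also hold many processed pseudogenes of these genes, which were copied from spliced messenger RNA and so lack the parent's promoter.

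Peak height is the value that the authors gave each peak, in units scaled by depth that the sources used here do not define. For each gene the highest peak within 500 bp of a reference transcription start site was used, with its width, and footprints were counted where their midpoint lay in the same window. Because the kidney was assayed in bulk, fewer cells with an open promoter and less cutting per cell cannot be told apart. Replicate 1 had 125393 peaks and 237471 footprints, and replicate 2 had 177001 peaks and 493495 footprints, so every footprint count is given per library. Of 9 kidney marker genes 7 had a promoter peak in both libraries; the collecting duct gene Aqp2 and the podocyte gene Nphs1 did not. None of the 4 blood, muscle and neuron markers had one. Genes are not replicates of each other, so counts and medians over genes are descriptions, set beside the same values over all genes, and no test was run.

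The sequences of 6 promoters show what the footprints covered. They are the highest promoter (Rpl7a), the lowest of a core subunit (Rpl23a) and those with the most matches to searched motifs inside footprints of both libraries. Each runs 5′ to 3′ on the gene's strand from 170 bases before the reference start to 29 bases after it in GRCm38.p6, the mm10 build, and capitals mark bases inside a footprint in both libraries.
Rpl7a, chr2:26910594-26910793, + strand: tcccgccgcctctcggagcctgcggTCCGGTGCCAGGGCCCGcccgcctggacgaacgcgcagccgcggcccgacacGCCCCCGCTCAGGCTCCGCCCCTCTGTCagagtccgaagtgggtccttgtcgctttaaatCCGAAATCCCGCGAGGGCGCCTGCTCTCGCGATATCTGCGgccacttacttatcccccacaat
Rpl23a, chr11:78183555-78183754, - strand: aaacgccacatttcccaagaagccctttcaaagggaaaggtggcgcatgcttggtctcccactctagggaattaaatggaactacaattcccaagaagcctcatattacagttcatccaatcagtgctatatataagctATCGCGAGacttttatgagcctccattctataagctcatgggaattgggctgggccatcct
Rpl27a, chr7:109518977-109519176, + strand: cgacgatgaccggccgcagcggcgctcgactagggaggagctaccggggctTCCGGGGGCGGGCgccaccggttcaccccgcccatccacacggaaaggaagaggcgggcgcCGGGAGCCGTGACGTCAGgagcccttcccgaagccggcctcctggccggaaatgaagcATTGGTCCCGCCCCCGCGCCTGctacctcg
Rpl36al, chr12:69184054-69184253, - strand: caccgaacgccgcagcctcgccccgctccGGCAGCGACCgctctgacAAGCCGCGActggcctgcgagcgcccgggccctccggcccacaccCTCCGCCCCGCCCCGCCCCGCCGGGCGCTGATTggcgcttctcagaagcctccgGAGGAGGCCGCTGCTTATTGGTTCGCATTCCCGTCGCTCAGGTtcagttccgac
Rpl31, chr1:39367672-39367871, + strand: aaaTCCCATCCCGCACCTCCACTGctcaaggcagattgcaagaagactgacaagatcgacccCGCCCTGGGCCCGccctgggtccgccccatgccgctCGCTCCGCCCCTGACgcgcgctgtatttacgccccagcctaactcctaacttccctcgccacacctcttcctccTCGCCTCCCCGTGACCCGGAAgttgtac
Rps15a, chr7:118116159-118116358, - strand: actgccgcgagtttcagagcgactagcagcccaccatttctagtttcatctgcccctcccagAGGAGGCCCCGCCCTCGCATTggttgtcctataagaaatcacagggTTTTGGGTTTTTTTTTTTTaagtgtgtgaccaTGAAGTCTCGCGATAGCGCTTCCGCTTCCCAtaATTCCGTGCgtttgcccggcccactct
Footprints of both libraries covered 85 of the 200 bases at Rpl7a, 95 at Rpl36al, 80 at Rps15a, 70 at Rpl31 and 53 at Rpl27a. At Rpl23a they covered 8 bases.

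Nearly every ribosomal protein gene had an accessible promoter in the kidney. A peak lay at the reference start of 81 of 86 genes (94.2%) in both libraries, against 62.5% of all protein-coding genes. The same count of 81 was reached in replicate 1, where 63.4% of all genes had a peak, in replicate 2 with 65.4%, and in both libraries with the authors' shorter peak list, where 59.1% of all genes did. No gene was open in 1 library alone. All 43 large-subunit genes, 30 of 31 small-subunit genes and all 3 stalk genes were open, compared with 5 of the 9 paralogs.

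The 5 genes without a peak at the reference start in either library were Rpl10l, Rpl39l, Rpl3l, Rps27rt and Rps14. Rpl10l and Rpl39l are copies used in mouse male germ cells, Rpl3l is the form of Rpl3 found in heart and skeletal muscle, and Rps27rt is a retrogene of Rps27. These 4 had no footprint either, and no peak at any annotated start. The CpG observed over expected ratio in their windows was 0.720 for Rpl10l, 0.550 for Rpl39l, 0.408 for Rps27rt and 0.171 for Rpl3l. All 4 lay below the medians of 0.815 over the open members and 0.725 over all open genes. Among open members the ratio was as low as 0.507, at Rps4x. Repeated sequence can hide a peak. Of the 32-base words in the window, 40.9% occur again in the genome at Rps27rt, 25.6% at Rpl10l, 0.206% at Rpl3l and 0% at Rpl39l. Among open members the share reached 40.7%, at Rps29. Of the words after the start, 84.5% were repeated at Rps27rt and 26.0% at Rps29, and of those before it 0% and 58.2%. The part of repeats in the missing peaks was not tested.

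Rps14, a protein of the small subunit's platform, was the exception among core subunits through its annotation. Its reference start, at position 60776239 of chromosome 18, lies 1643 bases inside the transcript that RefSeq selects, which starts at 60774596. Near that start the highest peak had a height of 7.07 in replicate 1, centred at 24.5, and of 9.80 in replicate 2, centred at -236, with 9 footprints in each library. By any annotated start, therefore, all 77 core subunit genes were open in both libraries.

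Open ribosomal protein promoters were also tall. Their median height was 12.4 in replicate 1 and 13.0 in replicate 2, against 7.39 and 6.97 over all genes with a promoter peak. On the mean of both libraries the medians were 13.3 and 7.30, a ratio of 1.82, and the middle 50% of the members ran from 8.62 to 17.5. Of the 81 open members, 67 lay above the median of all open genes, 18 in the highest 10% and 0 in the lowest 10%. The tallest was 12 times the lowest.

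**Figure D1:**
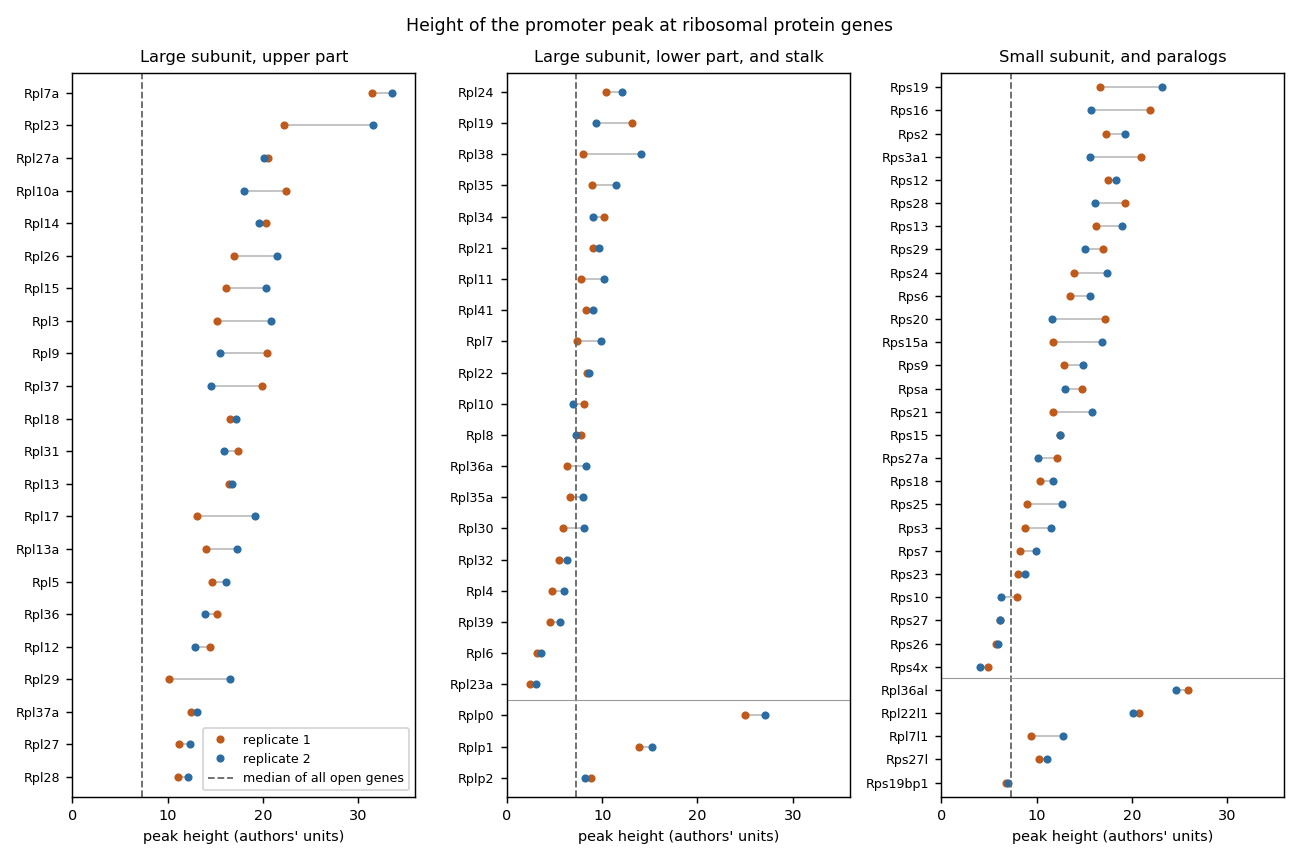
Height of the highest peak within 500 bp of the reference start (x axis, authors' units) for 76 of the 81 ribosomal protein genes with a peak, in replicate 1 (orange) and replicate 2 (blue), by subunit and in order of mean height, with the stalk genes and the paralogs set below a line. The dashed line is the median of all open genes, 7.30, and 67 of all 81 genes have a mean to its right.

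Among large-subunit genes the median of the mean height was 11.6, and among small-subunit genes it was 14.1. The large-subunit genes also spanned the whole range of the members, from 2.71 to 32.5, while the small-subunit genes lay between 4.42 and 19.9. Their middle ranges, 8.54 to 16.8 and 10.3 to 17.7, overlapped over most of their length.

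The tallest promoter was that of Rpl7a, a large-subunit gene with 3 small nucleolar RNA genes inside its body, at chr2:26910764-26913318. Its peak stood at 31.5 in replicate 1 and 33.5 in replicate 2, at percentile 99.7 of open genes on the mean of both. Its window also holds the start of Med22, a Mediator subunit gene, so the peak cannot be assigned to Rpl7a alone. Rpl23, whose protein lies on the face where the subunits join, followed with 22.2 and 31.6. Rplp0, the base of the stalk, reached 25.0 and 27.1. On the mean of both libraries these 3 stood above every other core member, while in replicate 1 alone Rpl10a, at 22.4, was level with Rpl23. Rpl36al, the autosomal paralog of the X-linked Rpl36a, had a height of 25.9 in replicate 1 and 24.6 in replicate 2, and shares its window with the start of Mgat2, a glycosyltransferase gene. Rpl22l1, the paralog of Rpl22, had 20.7 and 20.1. The large-subunit gene Rpl27a had 20.5 and 20.1.

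The lowest promoter of the open members was that of Rpl23a, whose protein sits at the exit of the peptide tunnel, at chr11:78180932-78183584. Its height was 2.40 in replicate 1 and 3.01 in replicate 2, and 24.9% of open genes were at or below it. Rpl6, on the surface of the large subunit, stood at 3.15 and 3.59. Both were lower than every other open member in both libraries. The X-linked Rps4x had 4.84 and 4.01, and the X-linked Rpl39 had 4.49 and 5.56. These Rpl39 heights belong to different peaks, centred at -148 from the start in replicate 1 and at 172 in replicate 2. Neither peak covered the reference start base. Rpl4, which lines the peptide tunnel, had 4.75 and 6.04, but that peak centred 444 bases before the start in replicate 2, and the start of the neighbouring gene Zwilch lies in the same window. The peak over the start of Rpl4 itself was 1.62 high in replicate 2, and in replicate 1 no peak covered that base.

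In the order of mean height, 78 of the 80 neighbouring pairs lay no farther apart than 1 SD of the log2 ratio between the libraries (0.314), so most ranks are not resolved. The 2 wider gaps separated Rpl6 from Rps4x above it and from Rpl23a below it.

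The stalk proteins recruit translation factors to the ribosome. Rplp0 was the tallest of their genes, Rplp1 had 13.9 in replicate 1 and 15.2 in replicate 2, and Rplp2 had 8.84 and 8.24. The 3 genes kept this order in both libraries, without overlap. All 3 had more than 1 peak in the window in both libraries, compared with 39.5% of all open members in replicate 1 and 46.9% in replicate 2. Rpsa, also known as the laminin receptor precursor, had 14.8 and 13.0, close to the median of the small-subunit genes. Ribosomal protein S30 is made from Fau, a gene outside the symbol rule, as a fusion to a ubiquitin-like protein. Fau, at chr19:6057844-6059524, had a height of 21.4 in replicate 1 and 20.2 in replicate 2, a mean above that of all but 4 members.

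The 4 X-linked genes were low for members. Rpl10, which is added late in assembly of the large subunit, had 8.08 in replicate 1 and 6.98 in replicate 2. Rpl36a had 6.27 and 8.31, and Rpl39 and Rps4x were among the lowest 6. Their median was 6.16, against 13.8 over the 77 open autosomal members, and 12 of those 77 fell below Rpl10, the tallest of the 4. All open genes showed the same order, with a median of 3.42 on the X and 7.53 on the autosomes. The mice were male and so have 1 X; the part this plays in the height was not tested.

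**Figure D2:**
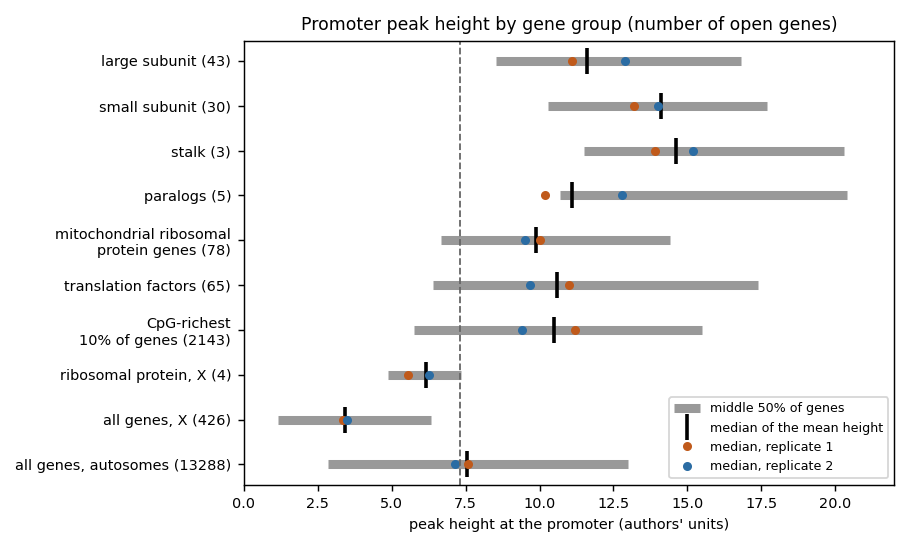
Median height of the promoter peak (x axis, authors' units) in replicate 1 (orange points), replicate 2 (blue points) and on the mean of both (black bars), with the middle 50% of genes (grey), for the ribosomal protein genes by subunit, related gene groups and X-linked genes; the number of open genes is in brackets and the dashed line is the median of all open genes. The large, small and stalk groups have medians of 11.6, 14.1 and 14.6, to the right of the mitochondrial ribosomal protein genes at 9.89.

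Related groups were as often open, with lower median heights but overlapping middle ranges. Mitochondrial ribosomal protein genes (Mrpl and Mrps), which supply the separate ribosome of the mitochondrion, were open in 78 of 78 cases, with a median height of 9.89. Translation initiation and elongation factor genes (Eif and Eef) were open in 65 of 68 cases, with a median of 10.6. Their middle range, 6.39 to 17.4, reached nearly as high as that of the ribosomal protein genes, 8.62 to 17.5. Their tallest promoter stood at 35.4, against 32.5. In the highest 10% of all open genes lay 15 of these 65, against 18 of the 81 open ribosomal protein genes. The large-subunit genes alone had a median of 11.6. In the 10% of protein-coding genes richest in CpG, 97.7% were open, with a median of 10.5. The 94.2% open among all 86 ribosomal protein genes includes the closed paralogs, and of the core subunit genes 98.7% were open. The median height of 13.3 was the largest of these groups. The order held in each library, with 12.4 for the cytosolic against 10.03 for the mitochondrial genes in replicate 1 and 13.0 against 9.52 in replicate 2.

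Pseudogenes named for these genes were a comparison added after the data were seen. Of 283 such pseudogenes, 7 (2.47%) had a peak at their 5′ end in both libraries, with a median height of 0.903. Repeated words were not counted at the pseudogenes, and the part of repeats in their missing peaks was not tested. Of the core subunit genes, 30 host small nucleolar RNA genes and had a median height of 14.9, compared with 12.1 over the open genes among the other 47. The start of another protein-coding gene lay in the window of 13 members, whose median was 13.6, against 13.0 for the open members with none.

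The libraries gave similar heights. Across the 81 members the log2 heights had a Pearson r of 0.904 and a Spearman rho of 0.856, compared with 0.961 and 0.946 over all 13718 open genes. Heights were higher in replicate 2 at 55 members and lower at 26, with a median log2 ratio of 0.132 (SD 0.314) against -0.0481 over all open genes, and 80 of 81 ratios lay within 2-fold of the median. At 4 members, Rpl39 among them, the highest peaks of the libraries did not overlap, so their ratios compare different peaks. Among the wide departures downward was Rps20, with 17.2 in replicate 1 and 11.6 in replicate 2. The widest upward was Rpl38, the gene altered in Tail short mice, with 8.02 and 14.1, followed by Rpl29 with 10.1 and 16.5. With 1 library per animal, animal and library cannot be told apart in these differences.

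Promoter peaks were no wider than elsewhere. The median width was 200 bp in each library, as over all open genes, and ranged from 80 to 320 bp in replicate 1 and from 120 to 420 bp in replicate 2. By mean width those of Rpl13a, Rpl37 and Rpl22 were among the widest. Rpl13a, whose protein also acts outside the ribosome in human monocytes, had a width of 220 bp in replicate 1 and 420 bp in replicate 2. Rpl37 had 260 and 320 bp, and Rpl22, on which developing mouse T cells depend, had 300 and 260 bp. Taller peaks were not wider: mean height and mean width had a Pearson r of -0.103 over the 81 members. Against CpG observed over expected, mean height had an r of 0.411, and against the share of repeated words 0.0907. All 3 are descriptions across genes that share the libraries.

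Peaks mostly sat on or just before the start. A peak covered the reference start base at 63 of 81 members (77.8%) in replicate 1 and 65 (80.2%) in replicate 2, against 73.9% of all open genes in replicate 1 and 72% in replicate 2. The highest peak was the one that covered it at 58 members in each library. The median position of the midpoint of the highest peak was -27.5 in replicate 1 and -32.5 in replicate 2, where negative values lie before the start. At 10 members it lay over 200 bases away in both libraries. The reference start differed from the RefSeq Select start by more than 100 bases at 17 of the 86 genes and agreed within 10 bases at 29. At Rpl35a, 1 of those 10, the selected start lies 565 bases upstream of the reference start, and the peaks of 6.59 and 7.94 centre within 10 bases of the selected start.

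Each open member carried several footprints. The median number was 5 in replicate 1 and 8 in replicate 2, against 5 and 7 over all open genes. Replicate 2 had more footprints than replicate 1 at 68 members, as many at 10 and fewer at 3. Rpl7, with 13 in replicate 1 and 18 in replicate 2, had the highest mean of both by the reference start. Rpl15 followed with 8 and 16 and Rps23 with 11 and 13, while Rpl13a with 10 and 12 tied with Rps19 with 9 and 13 and Rpl4 with 4 and 18. By the RefSeq Select start Rpl7 had 11 in each library, a mean below those of Rpl15 and Rps23. Rpl7 and Rps23 were of middling height, with means of 8.61 and 8.40. At Rpl35a there were 0 and 1 by the reference start, and 4 and 11 by the RefSeq start. No open member lacked footprints in both libraries.

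Height did not go with footprint number in these genes. The Pearson r between mean height and mean footprint number was -0.0434 over the 81 members, whereas over all 13718 open genes it was 0.611. None of the members lay in the lowest 10% of heights of all open genes, and the part of this narrower range in the difference was not tested.

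**Figure D3:**
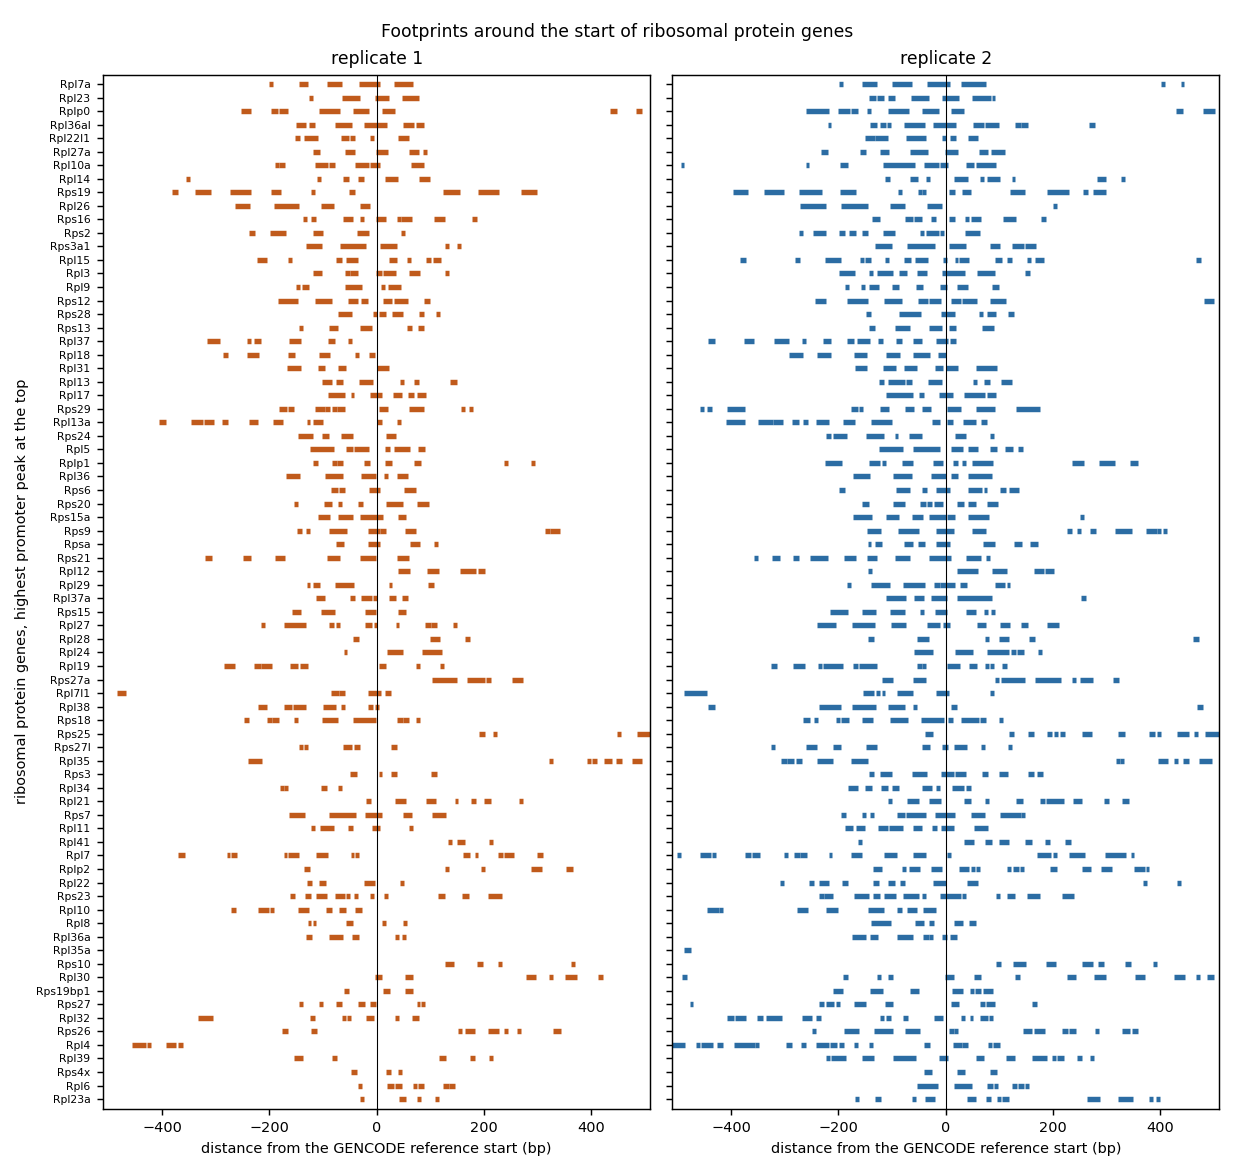
Footprints (bars, to scale) by distance from the reference start (x axis, bp on the gene's strand) at 76 of the 81 ribosomal protein genes with a peak, in order of mean height with Rpl7a at the top, in replicate 1 (left) and replicate 2 (right). Most bars lie within 200 bp of the start, as 83.3% of the footprints of all 81 genes in replicate 1 and 73.0% in replicate 2 did.

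The footprints clustered around the start. The members held 466 footprints in replicate 1 and 715 in replicate 2, of which 83.3% and 73.0% had their midpoint within 200 bp of the reference start, against 74.6% and 68.7% at all open genes. They were short, with median widths of 13 and 15 bp. The longest was 65 bp, centred 54 bases after the start of Rpl37a in replicate 2. Upstream of the start lay 57.5% of the footprints in replicate 1 and 55.1% in replicate 2, against 61.9% and 58.1% at all open genes. The median position was -26.2 and -20, against -40 and -35 at all open genes. This order turned with the annotation: by the RefSeq Select start the median of the members was -50 on the mean of both libraries, against -45 and -41 for all open genes. Most footprints of replicate 1 (89.9%) had an overlapping partner in replicate 2, while 55.1% of the more numerous footprints of replicate 2 had a partner in replicate 1. Over all open genes the shares were 85.5% and 52.9%.

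A pair of places stood out in the profile of protected bases. Aligned on the RefSeq Select start, the first 20 transcribed bases (positions 0 to 19, where 0 is the start base) were in a footprint in 38.3% of cases in replicate 1 and 50.4% in replicate 2, against 21.3% and 32.6% at all open genes. From 60 to 79 bases into the transcript the shares were 25.7% and 43.2%, against 12.7% and 24.4%. They then fell to 10.4% and 30.4% at 80 to 99 bases, and to 4.69% and 12.8% at 120 to 139. Aligned on the reference start neither place stood above its neighbours. The shares were 24.9% and 41.8% at 0 to 19 bases, below those just upstream, and 20.4% and 37.3% at 60 to 79 bases, below the 27.8% and 38.5% at 40 to 59. That both places rise above their neighbours thus depends on which start is used. The members were above all open genes by the reference start too. All open genes had 20.3% and 31.3% at 0 to 19 bases, and 12.3% and 23.6% at 60 to 79. A footprint covered the reference start base itself in both libraries at 20 of 81 members (24.7%), against 18.1% of all open genes. The shares per library were 27.2% in replicate 1 and 43.2% in replicate 2, against 21.4% and 32.1%.

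**Figure D4:**
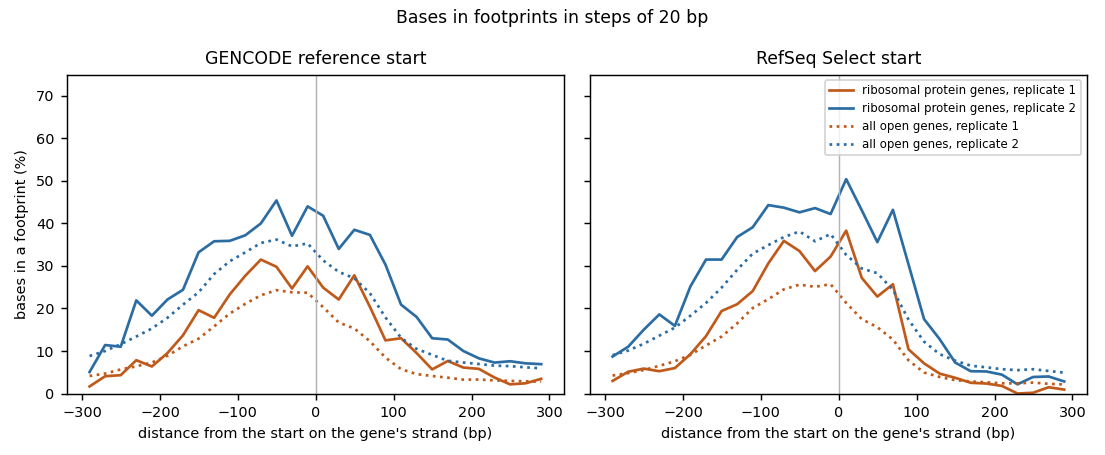
Share of bases in a footprint (y axis, %) by distance from the start in steps of 20 bp (x axis), aligned on the reference start (left) and on the RefSeq Select start (right), for the ribosomal protein genes open at the reference start (solid) and all open genes (dotted) in replicate 1 (orange) and replicate 2 (blue). On the right the solid lines peak just after the start, at 38.3% and 50.4%, and again at 60 to 79 bp, at 25.7% and 43.2%, where the dotted lines are already falling.

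The promoters held some transcription factor motifs more often than others did. Short consensus sequences were searched on both strands from 250 bases before to 49 after the reference start, and overlapping matches to a motif were joined into 1 site. A match is a description of the letters and not of binding. CCGGAAG, the core bound by ETS factors, was present at 26 of the 86 genes (30.2%), against 11.2% of all promoters and 16.5% of those that were open. Of its 31 sites, 13 (41.9%) overlapped a footprint in both libraries, at genes such as Rps2 and Rps7, against 44.3% of the sites in open promoters. GGGCGGG, of the SP and KLF factors, was at 39.5%, between the 33.5% of all promoters and the 48.6% of open ones. CCAAT, of NFY, was at 31.4%, against 38.4% and 37.5%.

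The palindrome-derived TCTCGCGAG, listed for ZBTB33 and contained in the CGCG element that BANP binds in mouse cells, was present at 9 of 86 promoters (10.5%), against 0.884% of all promoters and 1.31% of open ones. Each of the 9 genes had 1 site, and 7 of the 9 sites overlapped a footprint in both libraries (77.8%), the share found over open promoters in general (77.9%). These 9 genes had a median height of 17.7, compared with 11.7 over the other 72 open members. Their heights, 5.40 to 20.3, lay within the range of the others, 2.71 to 32.5. A link between the motif and height was not tested. The sites of 6 of these genes are shown 5′ to 3′ on the gene's strand with 10 bases on each side, the match in capitals.
Rpl10a, chr17:28328524-28328553: aacgggcaacTCTCGCGAGAacgcgggctc
Rpl26, chr11:68901530-68901559: gctccgagacTCTCGCGAGAtctcgcggca
Rpl27a, chr7:109519163-109519191: cgcctgctacCTCGCGAGActtcgtgagc
Rpl4, chr9:64173122-64173151: gaaagataatTCTCGCGAGAgttgtgacga
Rps28, chr17:33824544-33824573: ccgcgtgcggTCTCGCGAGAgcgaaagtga
Rps6, chr4:86857399-86857428: cgccggctgtTCTCGCGAGAacttagagcg
In 5 of these 6 the palindrome was complete, and in Rpl27a the match ended after 9 bases. The sites of Rps28 and Rps6 span the reference start base, from positions -1 and -6, and those of Rpl10a and Rpl26 begin at -34 and -95. All 4 were in footprints of both libraries. The site of Rpl4, at -243, was in a footprint of replicate 2 alone, and that of Rpl27a, at 26, in none. By the RefSeq Select start the Rps6 site begins at -51. The motif was then also at 9 members (10.5%), against 1% of all promoters and 1.39% of open ones. Rpl10a and Rpl4 dropped out, and others such as Rps19 came in.

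A shorter form, TCTCGCGA, was searched after the printed promoters of Rpl7a, Rpl23a and Rps15a had been seen to hold it. It was present at 14 members (16.3%), the 9 above and Rpl7a, Rpl23a, Rps15a, Rps3a1 and Rps19, against 1.37% of all promoters and 2.03% of open ones. At Rpl23a the only footprint that both libraries shared in the printed 200 bases overlaps this match, and at Rpl7a and Rps15a the match also lay in a footprint of both. Of its 14 sites, 11 (78.6%) overlapped a footprint in both libraries, against 70.5% of the sites in open promoters. The 9 genes hold it because it is part of the longer motif, and Rpl7a, Rpl23a and Rps15a prompted the search. Its share among the members, and its presence at the tallest and the lowest of them, are therefore not independent results. The Rps19 match, at -221 from the reference start, was in no footprint. By the RefSeq Select start Rps19 holds the longer motif at -27 and at -8, in each case in footprints of both libraries.

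**Figure D5:**
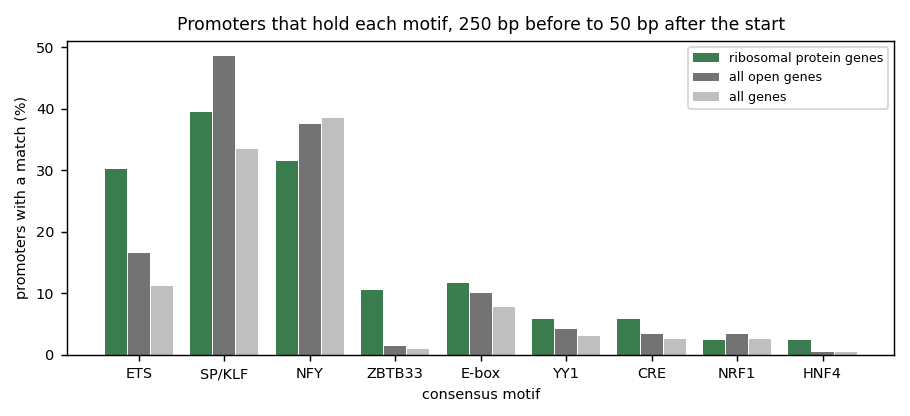
Share of promoters (y axis, %) that hold each consensus motif (x axis) among the 86 ribosomal protein genes (green), all open genes (dark grey) and all protein-coding genes (light grey). The green bars stand above both grey bars for ETS (30.2%) and ZBTB33 (10.5%), and lie between or below them for SP/KLF and NFY.

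AAGATGGC, of YY1, and TGACGTCA, of the CREB family, were each at 5 members (5.81%), against 3.09% and 2.48% of all promoters and 4.21% and 3.33% of open ones. In footprints of both libraries were 3 of the YY1 sites (60%, against 47.0% over open promoters) and 4 of the CREB family sites (80%, against 84.1%). CACGTG, the E-box of Myc, was at 11.6%, against 7.74% of all promoters and 9.94% of open ones, and by the RefSeq Select start at 8.14% against 8.16% and 10.2%. GCGCATGCG, of NRF1, was at 2.33%, against 2.52% of all and 3.33% of open promoters, and CAAAGTCCA, of the kidney and liver factor HNF4, at 2 genes, 2.33% against 0.428% and 0.386%. In the Rpl27a promoter the CRE match, an ETS match, an NFY match and 2 of the 3 SP/KLF sites were in footprints of both libraries. TATAAA lay 20 to 40 bases before the start of 1 member (1.16%), against 2.47% of all genes and 1.04% of open ones.

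A C followed by 4 or more pyrimidines within 5 bases of the start, as in TOP transcripts, was found at 29.1% of members by the reference start and 40.7% by the RefSeq Select start, against 18% and 18.9% of all genes.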

How the data were processed

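Peaks and footprints come from the authors, who called them per library on mm10, per the labels. Callers and aligner were not given in the sources used here. In each peak list, the deposited signal of a peak (column 7) is its height, which the authors scaled so that its low values rise in even steps, 1.72 times larger in replicate 1. Each footprint row deposited by the authors has the same q-value, 0.01, which was not used as a measurement. Absolute depth is unknown, so heights carry no counting interval. Because mm10 holds C57BL/6J sequence and 1 parent was CAST/EiJ, reads with strain variants may align less often.

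The longer of the 2 deposited peak lists was used, and the shorter was an alternative. The reference start of a gene was that of its best-ranked GENCODE M21 basic coding transcript (APPRIS level, consensus coding set, support level, length). Heights, widths and footprints were taken within 500 bp with Python 3.11.15 and pandas 2.3.3, after recovery of planted values was checked on simulated data. RefSeq Select starts, pseudogenes, host genes, neighbouring starts, repeated 32-base words and TCTCGCGA were comparisons added after seeing the data. The members, motifs and lists were chosen with earlier results of these data known. Genes named were the 6 tallest and 6 lowest open members, those without a peak, the 4 with the widest peaks, the 4 with most footprints, the X-linked, stalk and fusion genes with Rpsa, and the 4 with the most unequal libraries; others were named after their values were seen. Sequences are from GRCm38.p6. No sequence from chromosome 18 is shown, and the values of some genes that the rule names are not reported here.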

Additional observations from a re-analysis of the deposited data

How the results depend on the processing

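Of 65 values recomputed under other settings, 11 moved by more than the spread between the libraries. The count of open genes was the same in both libraries and so was judged by a 1.5-fold change instead. It was 78 to 82 of the 86 genes, against 81, and 76 of 77 with core subunits alone. No median changed sign, but by the RefSeq Select start the footprints of these genes lay farther upstream than those of all open genes (-45 and -41), the reverse of the order by the reference start. The median height was 12.1 with the 5′ end of the gene as its start, and 12.4 to 13.0 with a library left out in turn, against 13.3. The median width was 200 bp with either library alone, against 190 bp on the mean of both. The share of footprints upstream of the start, 56.3%, became 51.7% by the gene's 5′ end, 58.9% with footprints of at least 10 bp and 63.6% by the RefSeq Select start, which was chosen after seeing the data; with a library left out in turn it was 55.1% to 57.5%. The median footprint position of -23.1 became -5 by the gene's 5′ end, -27.9 in a window of 1000 bp, -29.9 with footprints of at least 10 bp and -50 by the RefSeq Select start, and -26.2 to -20 with a library left out. The footprint number of 7 was 5 to 8, and the share with a footprint over the start base, 35.2% as the mean of both, was 27.2% to 43.2%. Positions thus depend on the annotated start, and footprint counts on the library. No paired analysis was possible because the study has 1 group. Absolute depth is unknown, so the size of peak that could be missed is not known.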
